A study of Mus musculus with 12 samples.

Results

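The 10 genes described here are the respiratory chain genes of mitochondrial DNA named mt-Nd1, mt-Nd2, mt-Nd4, mt-Nd5, mt-Nd6, mt-Cytb, mt-Co1, mt-Co2, mt-Co3 and mt-Atp6. They were chosen by name, as 10 of the 21959 genes of a table of read counts, and all 10 had enough reads to be tested among 15682 genes. Testes of wild-type male mice of the outbred ICR stock, 9 months old at collection, were sequenced as polyadenylated RNA. From 8 months of age the mice had received saline by daily gavage, or blueberry extract at a daily dose of 50, 100 or 200 mg/kg. Every group had 3 libraries, 12 in all, with 14382378 to 19118265 counts each. The series asks, by its title, whether the extract improves sperm motility in ageing mice through less inflammation. The labels do not say that a group's libraries came from separate animals, and p-values therefore measure the spread between libraries, which may be technical. All 12 libraries carried 1 batch label. The saline group is itself the aged model, and no young mice enter the comparisons.

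Mitochondrial DNA is a small circle that encodes a few subunits of the respiratory chain, while the nucleus encodes the rest. It is read from each strand as long transcripts that are cut into single messages, most of which then receive a short poly(A) tail. Complex I passes electrons from NADH to ubiquinone, complex III passes them on to cytochrome c, complex IV gives them to oxygen, and complex V makes ATP from the proton gradient that the other three build. In sperm, the mitochondria are wound around the midpiece of the tail.

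The sequences shown fall into 3 sets, chosen because they bear on what a read count of these genes can mean. All are transcripts of the GENCODE M21 annotation on GRCm38, written 5′ to 3′. The first set compares 60 bases of mt-Co2 (transcript positions 445 to 504, gene at chrM:7013-7696, plus strand) with annotated nuclear copies of it. Gm28661 lies at chr1:24614885-24615565 and Gm13341 at chr2:22587291-22587962, both on the minus strand, and the capitals mark the 6 bases at which Gm13341 differs.
mt-Co2: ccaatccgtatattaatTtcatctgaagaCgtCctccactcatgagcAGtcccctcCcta
Gm28661: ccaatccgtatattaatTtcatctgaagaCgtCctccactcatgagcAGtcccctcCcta
Gm13341: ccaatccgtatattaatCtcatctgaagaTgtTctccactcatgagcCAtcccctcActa

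The Gm28661 window is the same as the mitochondrial one at every base. For mt-Co1 (chrM:5328-6872, plus strand) the copy that covers positions 460 to 519 is Gm13340, at chr2:22588103-22589647 on the minus strand. Capitals mark the 4 bases of this window that differ.
mt-Co1: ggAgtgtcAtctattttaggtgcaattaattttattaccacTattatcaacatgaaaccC
Gm13340: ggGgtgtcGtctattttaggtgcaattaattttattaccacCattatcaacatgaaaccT

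The second set shows the 3′ ends of mt-Nd5 (chrM:11742-13565, plus strand) and mt-Nd6 (chrM:13552-14070, minus strand). The genes run towards each other and overlap by 14 bases, which are in capitals.
mt-Nd5: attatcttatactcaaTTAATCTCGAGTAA
mt-Nd6: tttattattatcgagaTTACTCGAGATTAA

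The third set shows the last 24 bases of mt-Nd1 and of the 3 members whose transcripts stop short of a whole stop codon. Capitals mark the stop codon or the lone base that begins it. In mt-Nd4, mt-Cytb and mt-Co3 the poly(A) tail supplies the remaining letters of the stop, so the tail that the library kit captured is also part of their reading frame.
mt-Nd1: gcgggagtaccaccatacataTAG
mt-Nd4: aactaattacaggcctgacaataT
mt-Cytb: acaaaatactaaaattatatccaT
mt-Co3: tctccatttattgatgaggatctT

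The levels of the 10 genes spread over a wide range in the testis. In CPM, the count scaled to a library of 1000000 counts, divided by transcript length in kilobases, mt-Co1 averaged 4340 over the 12 libraries, mt-Nd1 2270 and mt-Cytb 1650. mt-Nd2 followed at 894, mt-Nd4 at 630, mt-Nd5 at 455 and mt-Nd6 at 265. At the low end stood mt-Co2 at 89.7, mt-Co3 at 63.3 and mt-Atp6 at 31.6 CPM per kb. The ranges of neighbours in this order did not overlap over the 12 libraries, except those of mt-Nd4 (558 to 751) and mt-Nd5 (354 to 597). By mean CPM, mt-Co1 ranked 1st among all genes of the table, mt-Nd1 ranked 17th and mt-Atp6 ranked 6693rd. Raw counts behind a single value ran from 192 for mt-Atp6 to 127829 for mt-Co1.

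The 3 members at the low end are those with a nuclear copy of almost their whole length that matches letter for letter. Copies of the whole or nearly the whole length also exist for mt-Co1 (Gm13340, 97.61% identical over the aligned bases), mt-Nd6 (Gm11408, 93.64%) and mt-Cytb (Gm11410, 92.91%). Of the 100-base windows of each transcript, 99.5% of mt-Co2, 99.9% of mt-Co3 and 99.5% of mt-Atp6 occurred letter for letter in an annotated nuclear transcript. The share was 60.8% for mt-Nd4, 30.8% for mt-Co1 and 3.2% for mt-Nd2, and it was 0% for mt-Nd1, mt-Nd5, mt-Nd6 and mt-Cytb. With windows of 50 bases it was 62.2% for mt-Nd4, 51.1% for mt-Co1, 8.2% for mt-Nd2 and 7.6% for mt-Nd5. Of 14 copies aligned, 7 lie in 1 block of chromosome 1 (chr1:24611535-24616197), and the pseudogenes annotated there align to 4140 bases of mitochondrial genes with 2 mismatches. None of the 14 copies has a line in the count table. The sources used here give neither the read length nor the handling of reads with several matches. The counts of mt-Co2, mt-Co3 and mt-Atp6 are uncertain for this reason. So is part of those of mt-Nd4, mt-Co1, mt-Nd2 and, if reads were short, mt-Nd5. The part of this in the levels or in the comparisons was not tested. Per 1000 unmatched windows of 100 bases, mt-Co1 reached 6700 CPM, mt-Nd1 2530, mt-Cytb 1800 and mt-Nd4 1730 CPM. On the same scale mt-Nd2 reached 1020, mt-Nd5 481 and mt-Nd6 327 CPM. This scale has a meaning only if reads with several matches were left out of the counts, which is not known.

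**Figure D1:**
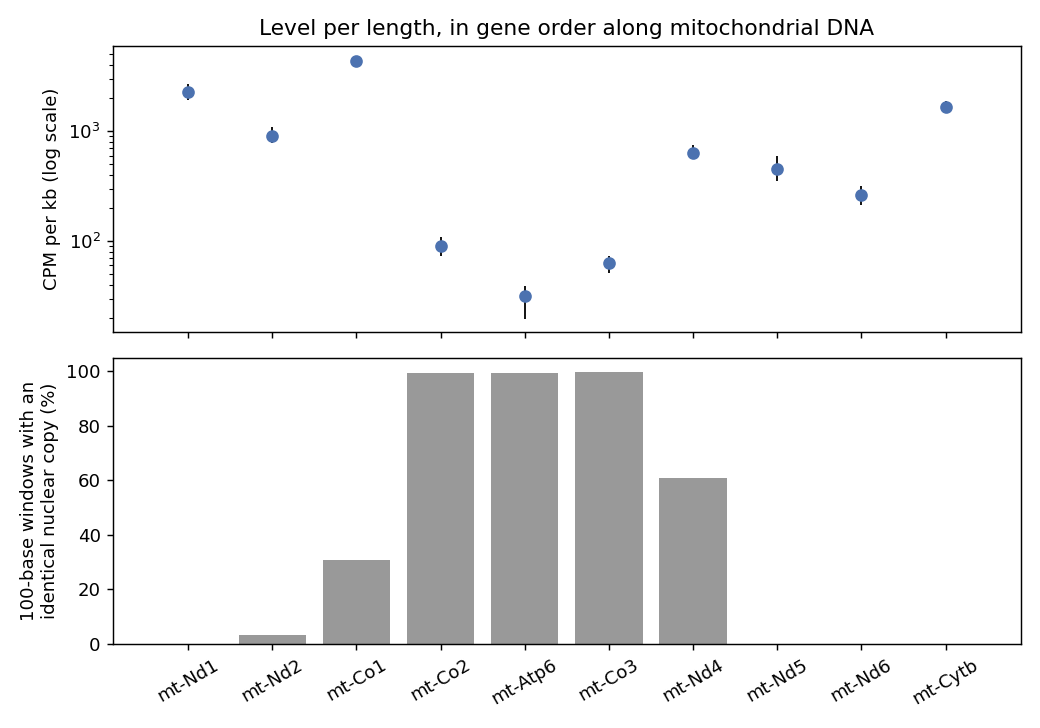
Level of the 10 genes in the order in which they lie along mitochondrial DNA. Above, the points are the mean and the lines the range of CPM per kb over 12 libraries (log axis); below, bars give the percentage of 100-base windows of the transcript with an identical nuclear copy. mt-Co2, mt-Atp6 and mt-Co3, with shares from 99.5% to 99.9%, have the lowest levels, from 31.6 to 89.7 CPM per kb.

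The table also held the other 3 protein-coding genes of mitochondrial DNA. mt-Nd3, a complex I subunit, averaged 10.5 CPM per kb and mt-Nd4l, also of complex I, 2.61 CPM per kb. Both have nuclear copies in the block on chromosome 1, which match 97.6% and 98.5% of their windows. mt-Atp8 of complex V had 13 counts over all libraries and was not tested. It averaged 0.296 CPM per kb, less than any other of these genes. Of its 100-base windows, 0% occurred letter for letter in an annotated nuclear transcript. Nuclear sequence outside annotated transcripts was not searched, so a copy of mt-Atp8 there would not have been seen.

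In the treated testes no member was called higher than in saline at any dose, where 9.21% of all genes were called higher at 50, 25.6% at 100 and 10.3% at 200 mg/kg. At 200 mg/kg, 7 of the 10 fell (edgeR's quasi-likelihood test, Benjamini-Hochberg adjusted p under 0.05), where 8.3% of all genes were called lower and 18.6% were called in either direction. At 50 mg/kg 2 fell, beside 8.02% of all genes called lower and 17.2% in either direction. At 100 mg/kg 2 fell as well, a share below that of all genes, of which 26.8% were called lower and 52.4% in either direction. The CPM of all 3 treated libraries lay below all 3 saline libraries for 9 members at 200 mg/kg, all but mt-Co1 (16.3% of all genes), for mt-Nd1 and mt-Atp6 at 50 mg/kg (14.9% of all genes) and for mt-Nd5 and mt-Co1 at 100 mg/kg (27.5% of all genes). mt-Nd5, the long subunit at the far end of the membrane arm of complex I, was the 1 member that passed at every dose. The median log2 fold change of the 10 was -0.10 at 50, -0.041 at 100 and -0.27 at 200 mg/kg, beside medians over all tested genes of -0.00056, 0.0086 and -0.0013. The 3 comparisons share the saline libraries, so their directions are not independent of each other. In whole tissue, fewer cells of a type and less RNA per cell cannot be told apart.

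**Figure D2:**
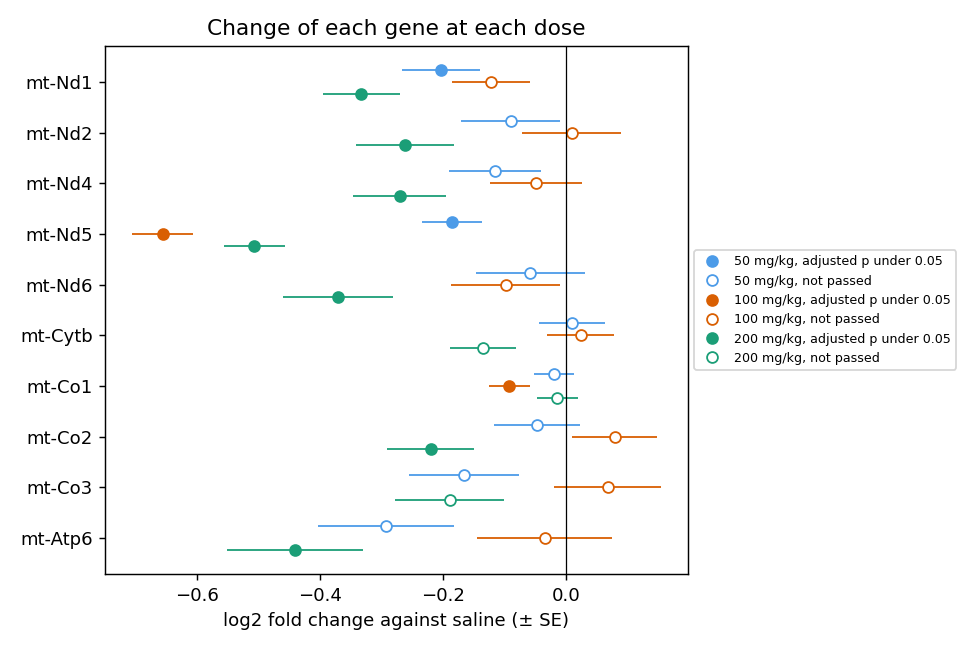
Log2 fold change of each of the 10 genes (vertical axis) at each dose against saline (horizontal axis), with the SE as bars. Filled points passed the adjusted p of 0.05 and open points did not; the mt-Nd5 points at 100 and 200 mg/kg lie farthest to the left, at -0.66 and -0.51.

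Libraries decided some of these counts. The 7 falls at 200 mg/kg became 4 without saline library 1, which had the highest level of 6 of the 7 among the saline libraries. Those 4 were mt-Nd1, mt-Nd5, mt-Nd6 and mt-Atp6, which also passed when any other library was left out. For 50 mg/kg the count went from 2 to 0 without saline library 1 or 50 mg/kg library 3, and to 1, which was mt-Co3, without 50 mg/kg library 2. It rose to 3, with mt-Atp6 added, without 100 mg/kg library 3 or 200 mg/kg library 2. At 100 mg/kg it was 1 without saline library 1, and 4 without 100 mg/kg library 3. That last library differed most from the rest of its group: the chi-square of counts per degree of freedom was 12.17 and 8.069 against its partners, and 1.569 to 3.063 for other pairs within groups.

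mt-Nd5 counted 1089, 1003 and 968.5 CPM in the saline libraries. It was at 984.9, 868.8 and 893.6 CPM at 50 mg/kg, at 646.1, 646.9 and 681.5 CPM at 100 mg/kg and at 745, 701.2 and 738.6 CPM at 200 mg/kg. Every library of the 2 higher doses lay below every saline library, and the 100 mg/kg libraries lay below all others, while the 50 mg/kg group overlapped saline through its library 1. The gene fell 1.58-fold at 100 mg/kg (log2 fold change -0.66 ± 0.05 SE, adjusted p = 2.78e-10) and 1.42-fold at 200 mg/kg (-0.51 ± 0.05, adjusted p = 5.91e-08). The 50 mg/kg level fell by 12% in edgeR's fit (log2 -0.18 ± 0.049, adjusted p = 0.0109), a call that was lost without saline library 1 (adjusted p = 0.0784), 50 mg/kg library 2 (0.0832) or 50 mg/kg library 3 (0.0692). It was also lost in a fit of the compared groups alone (0.0834) and in one that left out all 100 mg/kg libraries (0.0703). Directly compared, the 100 mg/kg level was lower than that at 50 mg/kg (-0.47 ± 0.05, adjusted p = 4.16e-08) and the 200 mg/kg level higher than that at 100 mg/kg (0.15 ± 0.05, adjusted p = 0.0139).

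mt-Nd1 makes part of the ubiquinone-binding pocket of complex I. It stood at 2545, 2335 and 2303 CPM in saline, 2270, 2073 and 2025 CPM at 50 mg/kg, 2062, 2166 and 2477 CPM at 100 mg/kg and 1954, 1840 and 1993 CPM at 200 mg/kg. The 50 and 200 mg/kg libraries all lay under the saline range, whereas library 3 at 100 mg/kg lay inside it. It fell by 20.6% at 200 mg/kg (log2 -0.33 ± 0.063, adjusted p = 0.00125) and fell by 13.1% at 50 mg/kg (-0.20 ± 0.063, adjusted p = 0.0341). The call at 50 mg/kg was lost without saline library 1 (adjusted p = 0.118), 50 mg/kg library 2 (0.107) or 50 mg/kg library 3 (0.125). No count filter (0.0788) and a fit that left out all 100 mg/kg libraries (0.0534) also ended it.

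mt-Nd2 and mt-Nd4 are proton-pumping subunits of the complex I membrane arm, and their levels followed each other over the 12 libraries. mt-Nd2 was at 1020, 948.4 and 942.7 CPM in saline and at 817.1, 813.2 and 831.9 CPM at 200 mg/kg. mt-Nd4 was at 983.9, 898.6 and 882.6 CPM in saline and at 769.2, 775.7 and 780.5 CPM at 200 mg/kg. For both genes the 200 mg/kg libraries lay closely together below the saline range, where mt-Nd2 fell by 16.6% (adjusted p = 0.0352) and mt-Nd4 fell by 17.1% (adjusted p = 0.0203). At the lower doses neither passed: mt-Nd2 ranged from 882.3 to 1018 CPM at 50 mg/kg and from 881.1 to 1135 CPM at 100 mg/kg, and mt-Nd4 from 829.1 to 933.1 CPM and from 813.8 to 1035 CPM. Without saline library 1 the calls at 200 mg/kg were lost for mt-Nd2 (adjusted p = 0.0864) and mt-Nd4 (adjusted p = 0.0582), with log2 fold changes of -0.23 for each. The calls were also lost without 200 mg/kg library 1, at an adjusted p of 0.0731 for mt-Nd2 and 0.0502 for mt-Nd4, and with no count filter (0.0939 and 0.0678). For mt-Nd2 the same held without 200 mg/kg library 2 (adjusted p = 0.0716) or library 3 (adjusted p = 0.0592).

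mt-Nd6 is the only protein-coding gene read from the other strand of mitochondrial DNA, and in human cells its message is known to lack a poly(A) tail. It was at 162.5, 142.7 and 138.5 CPM in saline, 154.6, 134.1 and 146.3 CPM at 50 mg/kg, 127.5, 129.1 and 164.7 CPM at 100 mg/kg and 118.3, 111 and 118.7 CPM at 200 mg/kg. The 200 mg/kg libraries lay below all others, and the 50 and 100 mg/kg groups overlapped saline. mt-Nd6 fell by 22.6% at 200 mg/kg (log2 -0.37 ± 0.09, adjusted p = 0.00862). The sources used here do not say whether strand entered the counting. If it did not, reads of either strand would count for a gene over its whole length, not only over the 14 bases shared with mt-Nd5. The values of mt-Nd5 and mt-Nd6 are uncertain for this reason, and how far was not tested.

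**Figure D3:**
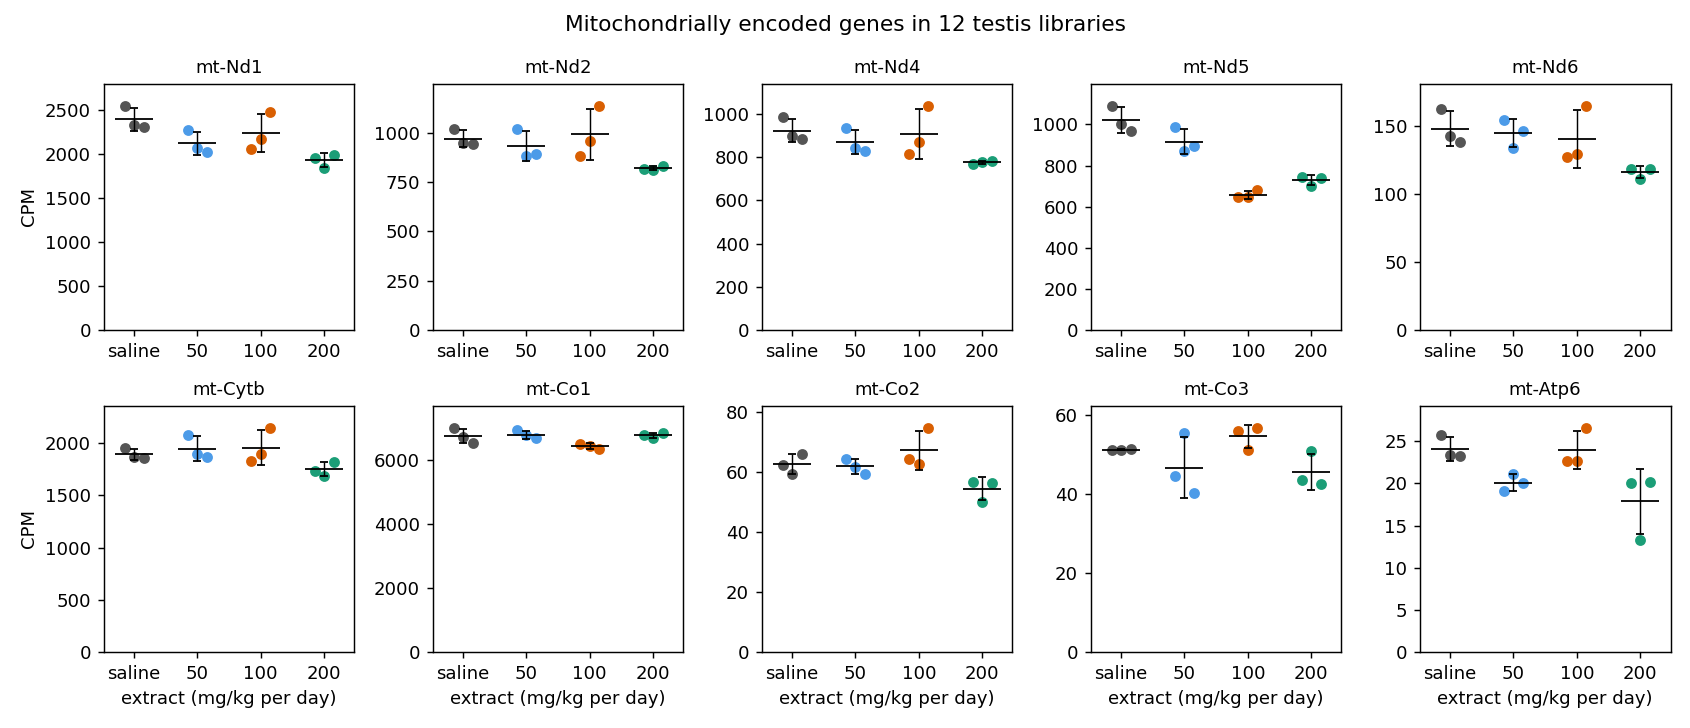
CPM of the 10 genes in every library (points), by group on the horizontal axis, with the group mean (line) and SD (bar, n = 3); each panel starts at 0. mt-Nd5 separates the 100 and 200 mg/kg libraries from the rest, while mt-Co1 stays between 6359 and 7009 CPM.

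mt-Cytb, the heme-carrying core of complex III, did not pass at any dose against saline. Its saline libraries were at 1953, 1868 and 1858 CPM and its 200 mg/kg libraries at 1736, 1689 and 1821 CPM, which lay below them without overlap. The log2 fold change there was -0.13 ± 0.054 (adjusted p = 0.0906). The 50 mg/kg libraries were at 2081, 1891 and 1865 CPM and the 100 mg/kg libraries at 1831, 1891 and 2143 CPM, both overlapping saline. mt-Cytb passed at 200 mg/kg without the 100 mg/kg libraries, with the length correction described below, and in 4 other settings, and had a log2 fold change from -0.16 to -0.11 over all settings.

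mt-Co1, the catalytic subunit of complex IV that reduces oxygen, was the most even member. It counted 7009, 6717 and 6552 CPM in saline, 6934, 6794 and 6686 CPM at 50 mg/kg, 6525, 6456 and 6359 CPM at 100 mg/kg and 6797, 6706 and 6867 CPM at 200 mg/kg. The 100 mg/kg libraries lay below all others, and the other groups overlapped. At 100 mg/kg mt-Co1 fell by 6.17% (log2 -0.092 ± 0.033, adjusted p = 0.0211), and was not called without saline library 1 (adjusted p = 0.149), in DESeq2 (0.0566), with library size alone (0.0899) or in a fit of the compared groups alone (0.116). The log2 fold change at 200 mg/kg was -0.014 ± 0.033 (adjusted p = 0.818), and it turned positive with library size alone.

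mt-Co2, which takes electrons from cytochrome c, and mt-Co3, a complex IV subunit without a redox centre, were both low, and the block on chromosome 1 copies both. mt-Co2 was at 62.3, 59.1 and 65.9 CPM in saline, 64.4, 61.7 and 59.2 CPM at 50 mg/kg, 64.3, 62.5 and 74.5 CPM at 100 mg/kg and 56.7, 49.9 and 56.3 CPM at 200 mg/kg. The 200 mg/kg group lay below the other libraries, and mt-Co2 fell by 14.1% (log2 -0.22 ± 0.071, adjusted p = 0.0316). The call was lost without saline library 1 (adjusted p = 0.0687), saline library 3 (0.146), 200 mg/kg library 2 (0.158) or 200 mg/kg library 3 (0.053). mt-Co3 was at 51.3, 51.2 and 51.4 CPM in saline and at 43.7, 51.0 and 42.6 CPM at 200 mg/kg (log2 -0.19 ± 0.089, adjusted p = 0.152). At 200 mg/kg it was called lower with limma voom (adjusted p = 0.0284) and in a fit of the compared groups alone (0.00547). mt-Co3 spread from 40.2 to 55.5 CPM at 50 mg/kg, and at 100 mg/kg it was at 56.0, 51.3 and 56.8 CPM, and it passed in neither.

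mt-Atp6, the subunit that forms the proton path of ATP synthase, had 25.8, 23.4 and 23.2 CPM in saline. Its 200 mg/kg libraries had 20.0, 13.4 and 20.2 CPM, at 50 mg/kg 19.1, 21.1 and 20.1 CPM and at 100 mg/kg 22.6, 22.7 and 26.6 CPM. The 50 and 200 mg/kg libraries lay below every saline library. mt-Atp6 fell by 26.3% at 200 mg/kg (log2 -0.44 ± 0.11, adjusted p = 0.00742), and without library 2 of that group it was smaller (-0.28, adjusted p = 0.0489). The log2 fold change of -0.29 ± 0.11 at 50 mg/kg did not pass (adjusted p = 0.0688). It passed with limma voom (adjusted p = 0.0199) and in a fit of the compared groups alone (0.00405). The same held without the 100 mg/kg libraries (0.0271) and with the length correction described below (0.0415). mt-Nd3, which lies in the same stretch and has a copy in the same block, fell at 50 mg/kg (-0.55 ± 0.18, adjusted p = 0.0363) and at 200 mg/kg (-0.65 ± 0.18, adjusted p = 0.0137), from 4.41 ± 0.39 CPM in saline to 3.1 ± 0.51 and 2.83 ± 0.66 CPM (SD, n = 3). mt-Nd4l, at 0.856 ± 0.17 CPM in saline (SD, n = 3), did not pass at any dose.

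Between doses the members split. From 100 to 200 mg/kg, 8 members were lower, where 25.2% of all genes were called lower, and mt-Nd5 and mt-Co1 were higher, where 27.8% of all genes were. The largest of the 8 falls was in mt-Atp6 (log2 -0.41 ± 0.11, adjusted p = 0.00376), followed by mt-Co2 (-0.30 ± 0.07, adjusted p = 0.000909), and the smallest in mt-Cytb (-0.16 ± 0.054, adjusted p = 0.0174). Without 100 mg/kg library 3, mt-Co2 and mt-Atp6 alone remained among the 8, and without 200 mg/kg library 2, 5 remained. The rise of mt-Co1 (0.078 ± 0.033, adjusted p = 0.0475) did not pass when saline library 1, library 2 at 100 mg/kg, or libraries 1 or 3 at 200 mg/kg were left out in turn, and that of mt-Nd5 did not pass without 200 mg/kg library 1 (adjusted p = 0.0509) or with the length correction described below (log2 0.11, adjusted p = 0.089). With that correction the falls of mt-Co2 and mt-Atp6 alone passed among the 8.

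From 50 to 100 mg/kg mt-Nd5 was lower, where 26.9% of all genes were called lower, and mt-Co3 was higher (0.23 ± 0.088, adjusted p = 0.0313), where 24.6% of all genes were called higher. The mt-Co3 difference was 0.12 without 50 mg/kg library 3 (adjusted p = 0.265) and 0.36 without 50 mg/kg library 2 (adjusted p = 0.000677), and it was also lost without library 1 at 50 mg/kg, or without either library 1 or library 3 at 100 mg/kg. mt-Atp6 was called higher without 100 mg/kg library 1 or 200 mg/kg library 2. mt-Co1 was called lower without saline library 3 or 100 mg/kg library 1, and mt-Nd6 and mt-Co1 without 100 mg/kg library 3.

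From 50 to 200 mg/kg only mt-Nd5 was lower of the 10 (-0.32 ± 0.049, adjusted p = 0.000129), and it stayed so in each of 23 other settings, where 2.51% of all genes were called lower in the fit with all libraries. No member was higher, where 2.54% of all genes were. mt-Nd6 joined it without saline library 1 or 3, or without library 2 of the 50 or the 100 mg/kg group, and mt-Nd6, mt-Cytb and mt-Co2 joined without 100 mg/kg library 3.

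A straight line through dose was passed by no member in edgeR's test, and by 0.223% of all genes. At an unadjusted p under 0.05, 6 members had a falling line, the steepest being mt-Nd5 at -0.26 ± 0.067 per 100 mg/kg (adjusted p = 0.123). The share of all genes under that unadjusted p is not given here, so the 6 cannot be compared with it. DESeq2 called 1 member, where it called 305 genes in all, and limma voom 8, where it called 1739. Without the 100 mg/kg libraries 7 members passed, where 1143 genes were called in all. In the test for any difference among the 4 groups, 9 members passed, where 64.3% of all genes did, and mt-Co1 did not (adjusted p = 0.065). Without 200 mg/kg library 1 that count was 5.

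Taken as 1 quantity, the 10 genes held 1.49, 1.405 and 1.379% of the counts of the saline libraries. Their share was 1.45, 1.362 and 1.346% in the 50 mg/kg libraries, 1.303, 1.325 and 1.415% in the 100 mg/kg libraries and 1.306, 1.275 and 1.327% in the 200 mg/kg libraries. The 200 mg/kg libraries lay below all saline libraries, and the other groups overlapped saline. Group means were 1.424 ± 0.058% in saline, 1.386 ± 0.056%, 1.348 ± 0.059% and 1.303 ± 0.026% along dose (SD, n = 3). In exact two-sided permutation tests p was 0.5, 0.3 and 0.1 for the doses, with 0.1 the smallest that 3 against 3 can give, and 0.0727 for the 9 treated libraries together (adjusted over these 4 tests 0.2). Leaving out libraries in turn moved the exact permutation p of the 9 together from 0.0364, without 50 mg/kg library 1, to 0.291, without saline library 1. Without saline library 1 the difference at 200 mg/kg was -0.089 percentage points instead of -0.122. For the 9 members other than mt-Co1, the share was 0.7485 ± 0.036% in saline and 0.6236 ± 0.018% at 200 mg/kg (exact permutation p = 0.1, the smallest possible).

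Ratios within a library do not depend on how libraries are scaled. mt-Nd5 counted 1.11, 1.12 and 1.1 times mt-Nd4 in saline, 1.06, 1.03 and 1.08 times at 50 mg/kg, 0.794, 0.746 and 0.659 times at 100 mg/kg and 0.969, 0.904 and 0.946 times at 200 mg/kg. The 4 groups did not overlap in this ratio. mt-Cytb has no identical window in an annotated nuclear transcript. Against it, mt-Nd5 went from 0.539 ± 0.018 in saline to 0.471 ± 0.01, 0.338 ± 0.018 and 0.417 ± 0.012 along dose (SD, n = 3), again without overlap between groups. mt-Co1 counted 2.83 ± 0.063 times mt-Nd1 in saline and 3.52 ± 0.11 times at 200 mg/kg, and 3.21 ± 0.14 and 2.9 ± 0.31 times at 50 and 100 mg/kg. Of the counts of the 10 genes, mt-Co1 took 47.5 ± 0.4% in saline and 52.1 ± 0.43% at 200 mg/kg, while mt-Nd5 took 7.16 ± 0.14% and 5.59 ± 0.11%, and at 100 mg/kg 4.89 ± 0.072%. These ratios are descriptions and were not tested.

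**Figure D4:**
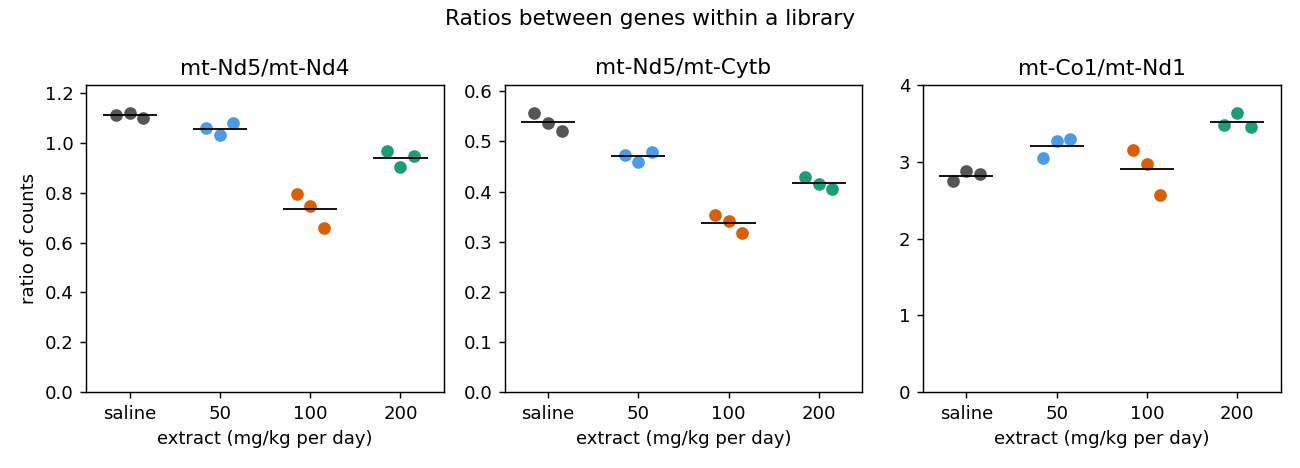
Ratio of counts between pairs of mitochondrial genes (vertical axis, from 0) in every library (points) with the group mean (line), by group. The ratio of mt-Nd5 to mt-Nd4 lies between 1.1 and 1.12 in saline and between 0.659 and 0.794 at 100 mg/kg.

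Over the 12 libraries, which share groups and depth, log2 CPM of mt-Nd2 and mt-Nd4 had a Pearson r of 0.981, and mt-Nd1, mt-Nd2, mt-Nd4, mt-Nd6 and mt-Cytb had r from 0.787 to 0.981 with each other. mt-Nd5 had 0.25 to 0.549 with those 5 and 0.614 with mt-Co1, and mt-Co1 had r from -0.481 to -0.00219 with the members other than mt-Nd5. Outside mitochondrial DNA, the 5 genes most like the summed CPM of the 10 among 9069 genes of at least 10 CPM were Hadh (r = 0.887), Polr2k (0.862), Tpd52l1 (0.856), Itgb3bp (0.815) and Pdcl2 (0.803). Among those most like mt-Co1 were Purb (0.915), ENSMUSG00000118665 (0.904), Ino80 (0.89) and Spon1 (0.889).

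Most nuclear subunits of complexes I to V rose at 100 mg/kg, where no mitochondrial member did. Of 77 nuclear genes listed for complexes I to V, 58 rose and 3 fell at that dose, with a median log2 fold change of 0.38, where 25.6% of all genes were called higher and 26.8% lower. For 50 mg/kg 1 rose and 9 fell (median -0.076), where 9.21% of all genes were called higher and 8.02% lower. For 200 mg/kg 1 rose and 14 fell (median -0.12), where 10.3% of all genes were called higher and 8.3% lower. Without 100 mg/kg library 3, 57 rose and 2 fell at 100 mg/kg, while 3 rose and 14 fell at 50 mg/kg and 2 rose and 27 fell at 200 mg/kg. The shares of all genes called in that fit are not given here, so these counts cannot be compared with them. When single libraries were left out, all genes called ranged from 1714 to 4016 at 50 mg/kg and from 1941 to 4182 at 200 mg/kg. Their summed CPM was 5688 to 5834 in saline, 5544 to 5770 at 50 mg/kg, 6862 to 7899 at 100 mg/kg and 5288 to 5595 at 200 mg/kg. The summed CPM of the 10 mitochondrial genes was 2.46 ± 0.14 times that of the 77 in saline, 2.47 ± 0.045 times at 50 mg/kg, 1.85 ± 0.054 times at 100 mg/kg and 2.39 ± 0.046 times at 200 mg/kg (SD, n = 3). The 100 mg/kg libraries lay below all others in this ratio, and the other groups overlapped.

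**Figure D5:**
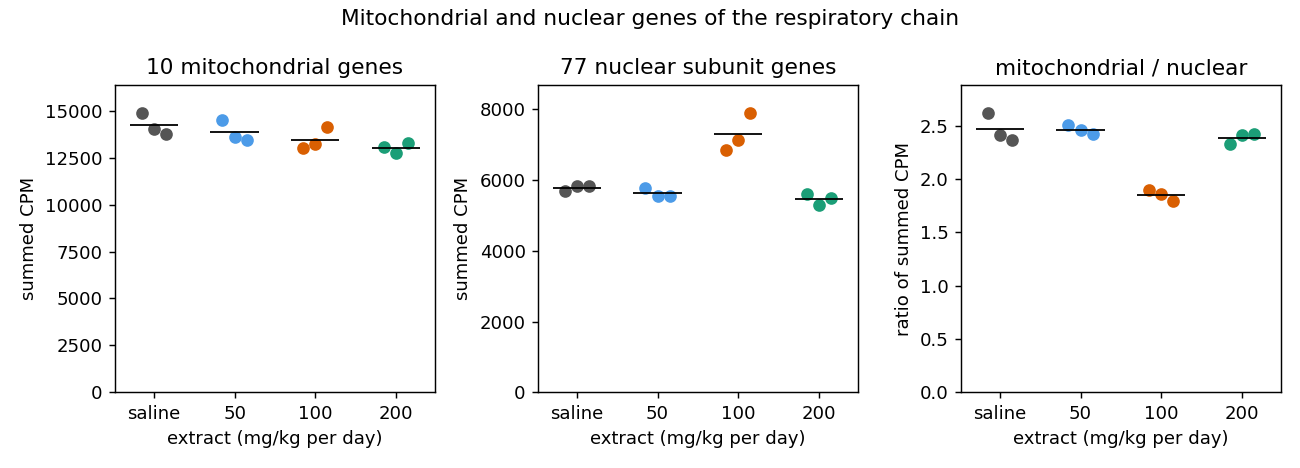
Summed CPM of the 10 mitochondrial genes (left), of 77 nuclear genes of complexes I to V (middle) and the ratio of the sums (right) in every library (points), with group means (lines). The ratio lies between 1.79 and 1.9 at 100 mg/kg and between 2.33 and 2.62 in the other libraries.

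Transcript length moved with the 100 mg/kg comparison. Over 15653 genes, the log2 fold change at 100 mg/kg had a Spearman correlation of -0.271 with transcript length, against 0.0367 at 50 and 0.0927 at 200 mg/kg. The nuclear subunits have short transcripts, with a median of 595.5 bases, and among the mitochondrial genes mt-Nd5 is the longest, at 1824 bases. With a trend on length taken out of each library, mt-Nd5 still fell at 100 mg/kg (log2 -0.64, adjusted p = 1.06e-09), as did mt-Co1 (-0.13, adjusted p = 0.00155). Without the correction mt-Nd1 (adjusted p = 0.116) and mt-Nd6 (0.38) had not passed at this dose. With it both were called lower, mt-Nd1 at -0.25 (adjusted p = 0.00232) and mt-Nd6 at -0.29 (adjusted p = 0.00625). From 100 to 200 mg/kg the correction took away 6 of the 8 falls, among them those of mt-Nd1 (adjusted p = 0.236), mt-Nd6 (0.512) and mt-Cytb (0.388). Under the same correction 43 of the 77 nuclear subunits rose and 6 fell at 100 mg/kg, in place of 58 and 3. The shares of all genes called under the correction are not given here, so the 43 and 6 cannot be compared with them.

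The genes named for each complex were taken by the smallest p. Of all genes, 25.6% were called higher and 26.8% lower at 100 mg/kg, and 10.3% higher and 8.3% lower at 200 mg/kg. At 50 mg/kg these shares were 9.21% and 8.02%. Of 36 nuclear partners of the complex I members, 25 rose and 1 fell at 100 mg/kg, with a median log2 fold change of 0.40. Ndufv2 of the NADH-binding module was at 0.41 ± 0.049 and Ndufb5 of the membrane arm at 0.59 ± 0.073. None rose and 8 fell at 200 mg/kg, among them Ndufb10 (-0.27 ± 0.064) and Ndufb8 (-0.33 ± 0.082). In complex III, 8 of 9 rose and 1 fell at 100 mg/kg, with Uqcrh at 0.49 ± 0.054 and Uqcrq at 0.65 ± 0.077, and 2 fell at 200 mg/kg, Uqcrc1 (-0.20 ± 0.057) and Uqcr11 (-0.35 ± 0.12). In complex IV, 9 of 12 rose at 100 mg/kg, with Cox6b2, the testis form of its subunit, at 0.74 ± 0.064 and Cox5b at 0.57 ± 0.067, and none passed at 50 or 200 mg/kg. In complex V, 15 of 16 rose at 100 mg/kg, among them Atp5e (1.54 ± 0.12) and Atp5j (0.53 ± 0.064), and 1 rose and 3 fell at 200 mg/kg. Complex II, which mitochondrial DNA does not encode, had 4 genes listed. At 100 mg/kg 1 was higher (Sdhb, 0.36 ± 0.078) and 1 lower (Sdha, -0.20 ± 0.049), near the shares of all genes. Sdhc was lower at 200 mg/kg (-0.27 ± 0.066).

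The nuclear genes that read, cut and stabilise mitochondrial RNA are counted here beside the 10.3% of all genes called higher and 8.3% called lower at 200 mg/kg. For 50 mg/kg the shares were 9.21% and 8.02%. Of 16 genes of mitochondrial transcription and DNA maintenance, 2 rose and none fell at 200 mg/kg: Rnaseh1, which removes RNA from RNA-DNA hybrids (0.53 ± 0.17), and Mterf1a, which binds mitochondrial DNA at a termination site (0.50 ± 0.16). The lowest dose had 2 higher, Mterf1a (0.56 ± 0.16) and Tfb1m, a methylase of mitochondrial ribosomal RNA (0.27 ± 0.095), and at 100 mg/kg 5 rose and 3 fell, with Tfb1m at 0.60 ± 0.092 and the polymerase gene Polg at -0.52 ± 0.079. Of 20 genes of mitochondrial RNA processing, 4 rose and 5 fell at 100 mg/kg, where 25.6% of all genes were called higher and 26.8% lower. The 2 with the smallest p were Lrpprc, whose protein keeps mitochondrial messages stable and polyadenylated (-0.68 ± 0.073, adjusted p = 5.01e-08), and Angel2 (-0.33 ± 0.058). The highest dose had 2 of the 20 higher, Ptcd3 (0.37 ± 0.074) and Pnpt1 (0.24 ± 0.079), and at 50 mg/kg 2 rose and 3 fell, with Ptcd1 at -0.50 ± 0.077. Of 7 regulators of mitochondrial biogenesis, 2 rose and 2 fell at 100 mg/kg, with Gabpa at -0.28 ± 0.081 and Ppargc1b at 0.63 ± 0.21, none passed at 200 mg/kg, and Gabpb1 rose at 50 mg/kg (0.25 ± 0.072).

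Markers of several cell types moved with the groups too, and their calls stand beside the background of all genes, of which 9.21% were called higher and 8.02% lower at 50 mg/kg. For 100 mg/kg these shares were 25.6% higher and 26.8% lower, and for 200 mg/kg 10.3% higher and 8.3% lower. All 6 markers of elongating spermatids were read in every group. Their summed level was 16540 to 16880 CPM in saline and 15790 to 16480 at 50 mg/kg. It was 18360 to 22020 CPM at 100 mg/kg and 14440 to 16220 at 200 mg/kg. Of the 6, 4 rose and 1 fell at 100 mg/kg. Round spermatid markers, of which all 6 rose at 100 mg/kg, summed to 999.1 to 1014 CPM in saline, 1030 to 1104 at 50 mg/kg, 1173 to 1228 at 100 mg/kg and 957.6 to 973.7 at 200 mg/kg.

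The sum of the 6 spermatocyte markers was 5030 to 5099 CPM in saline, 5091 to 5314 at 50 mg/kg, 5694 to 6006 at 100 mg/kg and 5106 to 5182 at 200 mg/kg. This sum and the single genes went different ways: at 100 mg/kg Ldhc and Spo11 rose and the other 4 fell (median log2 fold change -0.54), and at 200 mg/kg 1 rose and 3 fell (median -0.17). Spermatogonium markers (7 genes) summed to 109.4 to 117.6 CPM in saline, 99.89 to 103 at 50 mg/kg, 99.81 to 106.8 at 100 mg/kg and 105.5 to 120.4 at 200 mg/kg.

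Sertoli cells, the nurse cells of the tubule, had 8 markers, all above 0 in every group. These summed to 1525 to 1547 CPM in saline, 1251 to 1323 at 50 mg/kg, 1421 to 1521 at 100 mg/kg and 1159 to 1163 at 200 mg/kg. Of the 8, 6 fell at 50 mg/kg, 5 fell and 1 rose at 100 mg/kg, and 5 fell at 200 mg/kg. The 5 macrophage markers summed to 41.5 to 44.3 CPM in saline, 34.2 to 39.0 at 50 mg/kg, 47.4 to 51.8 at 100 mg/kg and 30.3 to 31.5 at 200 mg/kg, and the calls among them were 1 lower at the low dose, 2 higher at the middle dose and 4 lower at the high dose. The 6 Leydig cell markers summed to 1027 to 1056 CPM in saline, 986.4 to 1028 at 50 mg/kg, 907.3 to 977.2 at 100 mg/kg and 945.1 to 980.7 at 200 mg/kg, with 3 lower at each dose and 2 higher at 50 mg/kg.

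The 5 myoid cell markers summed to 54.96 to 57.3 CPM in saline, 48.29 to 52.46 at 50 mg/kg, 51.3 to 58.06 at 100 mg/kg and 47.12 to 48.4 at 200 mg/kg. Red blood cell markers (5 genes) summed to 31.01 to 33.94 CPM in saline, 31.12 to 35.22 at 50 mg/kg, 41.79 to 51.32 at 100 mg/kg and 29.35 to 31.5 at 200 mg/kg. Markers of epididymal epithelium (5 genes, 2 with enough reads to test) summed to 9.097 to 9.475 CPM in saline, 7.218 to 9.271 at 50 mg/kg, 9.442 to 11.8 at 100 mg/kg and 6.542 to 7.086 at 200 mg/kg. The part of cell composition in the levels of the mitochondrial genes was not tested.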

How the data were processed

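Per the labels' protocols, Trizol RNA of frozen testis went into poly(A)-selected TruSeq Stranded mRNA libraries. The authors deposited whole-number read counts per gene. STAR, featureCounts, Trimmomatic and DESeq2 are named, with mm10 and GRCm38, per the submitters' processing notes; the sources used here give no versions and no settings for strand or multi-mapping reads. Libraries were grouped and numbered by title; the descriptions number the third library of each treated group as the second, so the replicate block rests on the titles' numbers. Symbols, positions, lengths and sequences came from GENCODE M21 (GRCm38).

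CPM here is a count scaled to a library total of 1000000, without scaling factors. Tests used R 4.3.3 and edgeR 4.0.16 on the deposited counts of all 4 groups: filterByExpr, TMM factors, robust quasi-likelihood fit (8 residual degrees of freedom), contrasts and Benjamini-Hochberg adjustment over 15682 genes. The SE is the size of a log2 fold change over the square root of F. The test was tried on simulated data whose gene means came from the 50 mg/kg and saline libraries (15428 genes). Every simulated gene had the same spread, and far fewer genes were changed than were called in the real data. The rates found may therefore not hold for the real data. The test found 44% of genes changed 1.2-fold and 80% of those changed 1.5-fold. It found 96% at 2-fold and 100% at 4-fold, with 5.88% false calls. Alternatives were RLE factors, library size alone, TMM without mitochondrial genes, other count filters, DESeq2 1.42.0, limma 3.58.1 voom with sample weights, the compared groups alone, no 100 mg/kg libraries, a replicate block, a length correction (a lowess trend, span 0.3, as an offset) and leaving out each library. Counts of nuclear subunits with the length correction or without single libraries were added after seeing the data.

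Named genes were all members, the other mitochondrial genes, the 2 of each nuclear list with the smallest p, and the 5 most alike by Pearson r of log2 CPM. A gene that this rule took is not reported here. The members and lists were chosen with earlier results of these data known. All lists covered complexes I to V, mitochondrial transcription, RNA processing, biogenesis and cell type markers. Nuclear copies were found by exact windows of 50, 100 and 150 bases against annotated transcripts only.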

Additional observations from a re-analysis of the deposited data

How the results depend on the processing

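mt-Nd5 fell at 100 and 200 mg/kg in every alternative run (log2 -0.70 to -0.60 and -0.55 to -0.46), and mt-Nd1, mt-Nd6 and mt-Atp6 fell at 200 mg/kg in every one. The cause of the changes below was not tested. With a replicate block the members called against saline were the same, but 2 members were lower from 50 to 200 mg/kg, 1 was higher from 100 to 200 mg/kg, and 6 genes of all passed the trend. The values gave no sign that the numbers pair the libraries: 18 same-number pairs correlated from -0.129 to 0.0482. Such values cannot tell whether these libraries were handled together.

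At 50 mg/kg the members lower were 1 with no count filter, 1 without the 100 mg/kg libraries and 6 with voom, which called 4159 genes in all. At 100 mg/kg they were 1 with library size alone, DESeq2 or the compared groups alone, 4 with the length correction and 5 with voom. Where a setting is given in this section without its number of all genes called, its count of members cannot be compared with that background. At 200 mg/kg 5 members were lower with no count filter, without mt-Nd2 and mt-Nd4. mt-Cytb was called lower as well with the length correction or without the 100 mg/kg libraries. With voom or the compared groups alone, both mt-Cytb and mt-Co3 were added, and the compared groups alone gave 4439 genes called. From 50 to 100 mg/kg, 2 members were higher with RLE, no filter or DESeq2 and 0 with the length correction, and 2 were lower with a mean of 1 CPM or the length correction and 3 with voom. From 50 to 200 mg/kg the members lower were 2 with library size alone or DESeq2, 5 with voom, 4 with the compared groups alone and 4 without the 100 mg/kg libraries, with 1631, 1561 and 1689 genes called by these last 3. From 100 to 200 mg/kg 1 member was higher with RLE, library size alone, no filter, DESeq2, the compared groups alone or the length correction, which left 2 lower. That member was mt-Nd5, except with the length correction, where it was mt-Co1. The trend gave 1 member and 305 genes with DESeq2, 8 and 1739 with voom, 7 and 1143 without the 100 mg/kg libraries, and 65 genes with the length correction.

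Signs turned for values that had not passed. At 50 mg/kg mt-Co1 was 0.0097 with library size alone, and mt-Cytb -0.0036 with no filter, -0.0058 with voom and -0.021 with the length correction. At 100 mg/kg voom gave mt-Nd2 -0.044, mt-Cytb -0.023 and mt-Co2 -0.00088, and the length correction mt-Nd2 -0.12, mt-Cytb -0.094, mt-Co2 -0.023 and mt-Co3 -0.035. At 200 mg/kg mt-Co1 was 0.0065 with library size alone.

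Leaving out each library gave ranges. Members lower were 0 to 3 at 50, 1 to 4 at 100 and 4 to 8 at 200 mg/kg against saline, 1 to 3 from 50 to 100, 1 to 4 from 50 to 200 and 2 to 8 from 100 to 200 mg/kg, and 0 to 1 for the trend. Members higher were 0 to 2 from 50 to 100 and 0 to 2 from 100 to 200 mg/kg, and 5 to 9 members passed the test for any difference. Genes called ran from 1714 to 4016 at 50 mg/kg, 1941 to 4182 at 200 mg/kg, 464 to 1690 from 50 to 200 mg/kg and 5 to 89 for the trend. Log2 fold changes at 50 mg/kg were -0.044 to 0.0018 for mt-Co1, -0.042 to 0.042 for mt-Cytb and -0.11 to 0.0091 for mt-Nd6. At 100 mg/kg they were -0.12 to 0.018 for mt-Atp6, -0.0047 to 0.13 for mt-Co2, -0.050 to 0.066 for mt-Cytb, -0.10 to 0.085 for mt-Nd2 and -0.16 to 0.02 for mt-Nd4. At 200 mg/kg mt-Co1 ran from -0.039 to 0.0067. Depth limits mt-Nd4l and mt-Atp8, with 158 and 13 counts in all.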
